A study of Mus musculus with 11 samples.

Results

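Thrombospondins and other matricellular glycoproteins, together with fibronectin, were followed at the RNA level in mouse embryonic fibroblasts (MEFs) after knockdown of p53 or of the lincRNA Pint. A gene was taken when a probe set of the array named it, and it alone, in the platform annotation. Of 10 genes listed, 9 were measured in this way, each by 1 probe set, out of 19937 genes with a probe set of their own. They are Thbs1, Thbs2, Thbs3, Thbs4 and Comp of the thrombospondin family, the tenascin gene Tnc, the periostin gene Postn, Sparc and Fn1. Spp1, the osteopontin gene, was not analysed here.

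All MEFs were p53LSL/LSL cells on a C57BL/6 x 129/SvJ background, in which a removable stop cassette keeps p53 off. In every group, controls included, p53 was first restored by 24 h of infection with a Cre adenovirus at a multiplicity of infection of 5. Cells then received control siRNA (3 arrays), p53 siRNA (3 arrays), control antisense oligonucleotide (ASO, 2 arrays) or Pint ASO (3 arrays), and 24 h later 150 nM doxorubicin, which damages DNA, for 12 h. The study describes the Pint ASO as a pool of oligonucleotides and the control ASO as non-targeting, and no group was left without transfection, adenovirus or doxorubicin. The study describes its experimental data in general as means of biologic replicates, but the labels do not say whether these arrays came from separately grown cells, and the spread behind each p-value may therefore be technical. The labelled cell type was checked on marker lists by counting probe sets with a mean above log2 6. All 10 fibroblast markers, among them Vim (14.27), Dcn (13.37) and Fap (6.22), passed in every group. So did all 5 smooth muscle markers, with means over all arrays from 7.13 (Myh11) to 13.99 (Acta2). Of the 7 chondrocyte and tendon markers 6 or 7 passed, with means from 6.09 (Matn3) to 10.22 (Sox9). This threshold is low, as array medians lay between 7.31 and 7.38. Of the endothelial markers, 4 of 5 passed, led by Kdr (7.40), with Emcn at 4.82. Of the macrophage markers, 3 or 4 of 7 passed, led by Cd68 (10.02), with Ptprc at 5.66 and Adgre1 at 5.05, and of the 3 osteoblast markers measured, 2 passed, with Ibsp at 4.97. The counts thus do not go against the label. They do not separate fibroblasts from smooth muscle, cartilage and tendon or endothelial cells, and macrophage and osteoblast markers also passed in part. The Lncpint probe set, which measures Pint, averaged 10.32 in control ASO and 8.54 in Pint ASO. It averaged 9.61 in control siRNA and 9.07 in p53 siRNA, so its mean was lower with p53 siRNA as well (log2 change -0.54). Between the controls, its mean was 0.71 higher in control ASO. The p53 gene itself was not analysed here.

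Matricellular proteins are secreted into the extracellular matrix, where they modulate adhesion, growth factor activity and matrix assembly rather than build the scaffold itself. Thbs1 and Thbs2 form trimers, bind CD36 and CD47 and restrain blood vessel growth, whereas Thbs3, Thbs4 and Comp form pentamers and are best known from cartilage, tendon and muscle. Fibronectin is a structural adhesive glycoprotein that integrins assemble into fibrils, and fibroblasts are a major source of many of these proteins in connective tissue and wounds.

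With p53 siRNA, Thbs3, Thbs4 and Postn rose to between 138% and 142% of control, Thbs2 fell to 87.9%, a call that most alternative fits lost, and 5 of 9 genes were not called. With Pint ASO, the same 3 genes fell to between 64.9% and 67.1% of control, Thbs2 fell to 49.9% and Sparc to 80.1%, and none rose. Thbs1, Comp, Tnc and Fn1 passed the test in neither knockdown. Values are log2 intensities normalized by RMA, a call is a Benjamini-Hochberg adjusted p under 0.05 over 26038 probe sets in limma, and a difference of 1 on the log2 scale is a 2-fold change. Over all probe sets tested, 16.9% were called with p53 siRNA and 19.1% with Pint ASO, against 4 and 5 of the 9 genes. By direction, 7.97% of probe sets were higher and 8.96% lower with p53 siRNA (3 and 1 of the genes), and 8.49% were higher and 10.7% lower with Pint ASO (0 and 5 of the genes). The median log2 change of the 9 genes was 0.06 with p53 siRNA and -0.32 with Pint ASO, beside 0.01 and 0.00 over all probe sets. The arrays measured RNA from whole cultures, so fewer cells of a kind and less RNA per cell cannot be told apart.

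**Figure D1:**
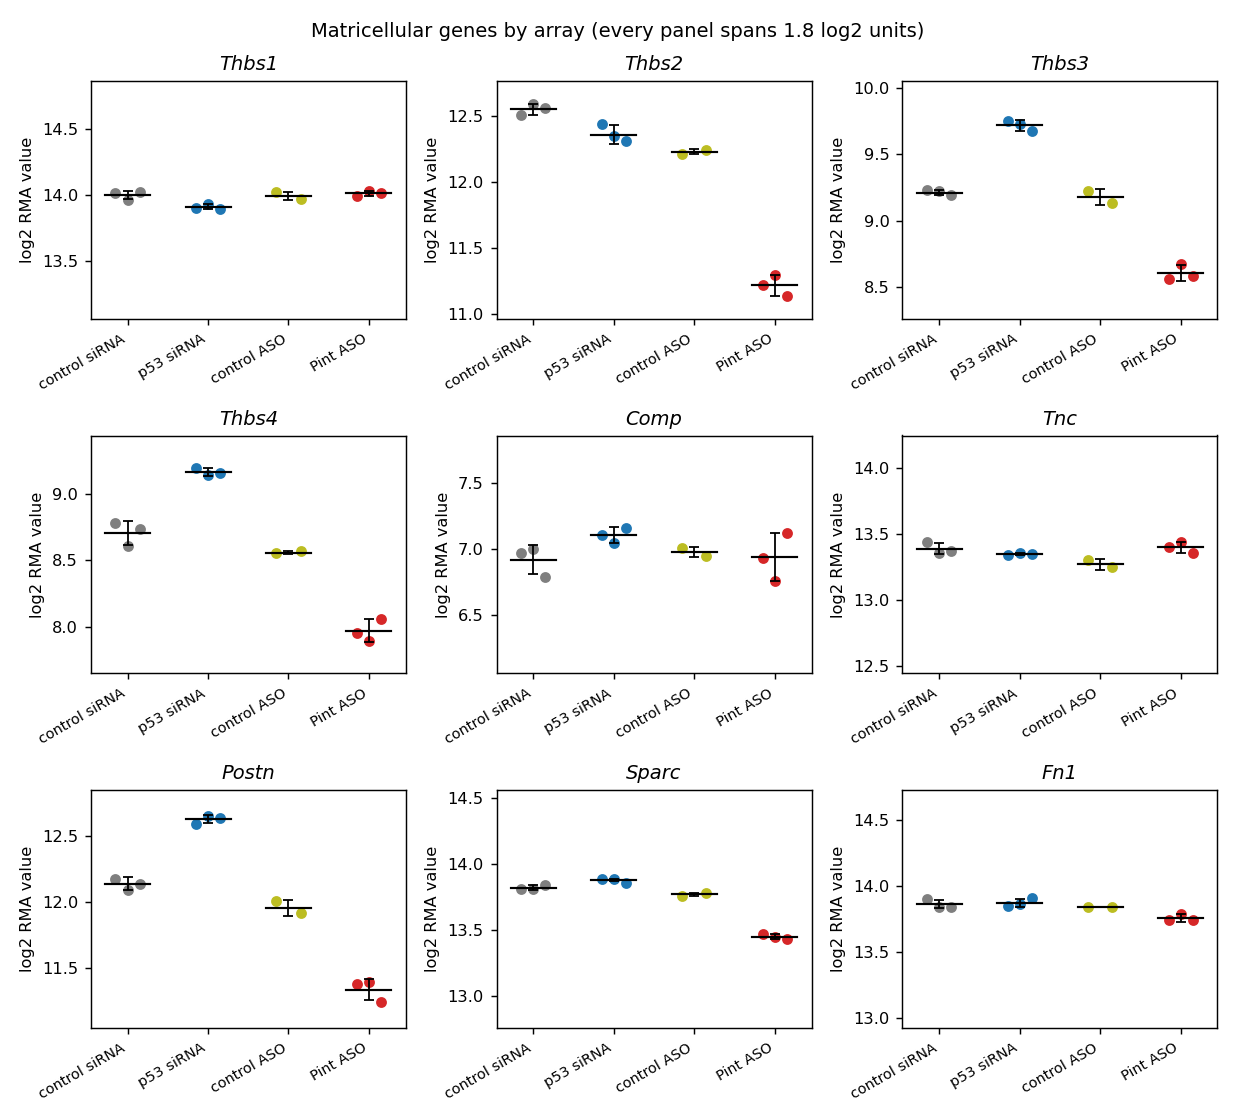
Log2 RMA value (vertical axis) of the 9 genes in each array (points) of the 4 groups (horizontal axis), with lines at group means and bars of 1 SD; every panel spans the same number of log2 units, so distances can be compared between genes but levels cannot. Postn, Thbs3 and Thbs4 have p53 siRNA arrays above and Pint ASO arrays below both controls, Thbs2 drops from 12.23 to 11.22 in the ASO arm, and Thbs1, Tnc and Fn1 stay nearly flat.

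Promoter sequences are shown for the 4 genes with the widest range of group means, because 3 of them moved together and Thbs2 did not follow them with p53 siRNA. The windows come from RefSeq on GRCm38.p6 and run from 250 bases before to 50 bases after an annotated start site, and 7 of the 10 genes listed had at least 1. Each is written 5′ to 3′ on the gene's strand, in lower case. Capitals mark matches, on either strand, to the core promoter motif TATAAA, to the motif GGGCGG known as a binding sequence of Sp1 or to the motif CCAAT bound by NF-Y. Positions are those of a match's first base, counted back from -1 at the base before the start.
Thbs2, chr17:14694213-14694512, minus strand: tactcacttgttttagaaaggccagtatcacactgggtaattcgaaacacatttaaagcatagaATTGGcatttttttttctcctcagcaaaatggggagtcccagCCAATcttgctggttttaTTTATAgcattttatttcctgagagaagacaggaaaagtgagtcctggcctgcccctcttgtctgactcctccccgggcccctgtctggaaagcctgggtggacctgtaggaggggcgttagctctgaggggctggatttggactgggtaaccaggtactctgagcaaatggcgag
Thbs3, chr3:89214930-89215229, plus strand: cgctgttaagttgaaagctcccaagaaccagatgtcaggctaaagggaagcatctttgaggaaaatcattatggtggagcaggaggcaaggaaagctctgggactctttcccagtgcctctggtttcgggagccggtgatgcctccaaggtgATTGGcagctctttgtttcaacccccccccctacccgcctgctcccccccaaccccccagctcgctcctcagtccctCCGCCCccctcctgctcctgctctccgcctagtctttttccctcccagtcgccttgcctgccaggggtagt
Thbs4, chr13:92794769-92795068, minus strand: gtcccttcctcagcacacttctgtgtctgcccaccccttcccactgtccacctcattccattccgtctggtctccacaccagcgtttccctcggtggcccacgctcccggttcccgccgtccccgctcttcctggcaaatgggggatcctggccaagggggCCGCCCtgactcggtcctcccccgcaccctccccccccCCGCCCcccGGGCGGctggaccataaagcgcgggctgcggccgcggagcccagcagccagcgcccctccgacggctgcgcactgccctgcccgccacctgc
Postn, chr3:54360857-54361156, plus strand: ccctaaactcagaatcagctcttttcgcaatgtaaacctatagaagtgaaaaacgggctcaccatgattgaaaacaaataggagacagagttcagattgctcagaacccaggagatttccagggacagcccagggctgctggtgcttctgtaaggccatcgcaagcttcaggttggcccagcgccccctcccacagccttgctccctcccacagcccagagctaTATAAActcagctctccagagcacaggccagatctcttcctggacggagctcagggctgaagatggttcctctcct

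The windows differ in composition, with 72.0% G and C in Thbs4, 59.0% in Thbs3, 53% in Postn and 48.3% in Thbs2, against a median of 52.7% over 32851 windows. In Postn, TATAAA begins at position -26, and 13.6% of all windows hold that motif. Thbs2 holds TATAAA on the opposite strand, at -126, and 2 CCAAT matches, at -186 and -144. Thbs4 holds 3 GGGCGG matches, at -89, -51 and -42, and Thbs3 holds 1, at -21, beside 1 CCAAT, at -98. Over all windows, 35.7% hold GGGCGG and 37.4% hold CCAAT. The AP-1 motif TGANTCA (7.81% of windows), the p53 half-site (8.36%) and the CArG box (1.63%) were also searched on both strands, and none of the 4 windows holds them. Among the 7 listed genes with a window, a p53 half-site occurs once, in the window of Sparc, at -219. Thbs1, Comp and Fn1 had no window and were not searched. Postn has another window, upstream at chr3:54359017-54359316, which holds no TATAAA or GGGCGG and has 1 CCAAT, at position 25 after the start. The downstream window was chosen for display after its matches were seen. With either Postn window, no motif searched is in the windows of all 3 genes that rose with p53 siRNA and fell with Pint ASO. No matches overlap in these windows, and they are matches of letters, not measured sites.

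Thbs3, a pentameric thrombospondin known from growing bone, was at 9.23, 9.22 and 9.19 in the control siRNA arrays and at 9.75, 9.73 and 9.68 in the p53 siRNA arrays. All p53 siRNA arrays lay above all controls, with a log2 change of 0.51 (SE 0.05, 95% interval 0.40 to 0.61, adjusted p = 7.35e-05), or 142% of control. In the other arm it was at 9.22 and 9.13 with control ASO and at 8.56, 8.67 and 8.58 with Pint ASO. Here all knockdown arrays lay below the controls, with a change of -0.58 (SE 0.05, interval -0.69 to -0.46, adjusted p = 0.000121), or 67.1% of control. The control groups overlapped, at 9.21 ± 0.02 (SD, n = 3) and 9.18 ± 0.06 (SD, n = 2), and the Thbs3 level thus ran from 8.56 in the lowest Pint ASO array to 9.75 in the highest p53 siRNA array.

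Thbs4, a pentameric thrombospondin of tendon, muscle and injured tissue, was at 8.78, 8.61 and 8.74 with control siRNA and at 9.20, 9.15 and 9.16 with p53 siRNA. It rose by 0.46 (SE 0.06, interval 0.33 to 0.59, adjusted p = 0.000568), to 138% of control. With control ASO it was at 8.56 and 8.57, and with Pint ASO at 7.95, 7.89 and 8.06. It fell by 0.60 (SE 0.07, interval -0.75 to -0.45, adjusted p = 0.000322), to 66.0% of control, and the groups overlapped in neither arm. B, the log odds that limma gives and for which the study used a threshold of 3, was 2.86 for Thbs4 with p53 siRNA. The study's supplement also names cut-offs on the log fold change, set for each comparison, which were not applied here.

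Postn, a secreted protein that promotes collagen cross-linking and is typical of activated fibroblasts, was at 12.18, 12.09 and 12.14 with control siRNA and at 12.59, 12.65 and 12.64 with p53 siRNA. The change was 0.49 (SE 0.05, interval 0.37 to 0.62, adjusted p = 0.000213), or 141% of control. With control ASO Postn was at 12.01 and 11.92, and with Pint ASO at 11.38, 11.40 and 11.25. Each knockdown again stood clear of its control, and the fall with Pint ASO was 0.62 (SE 0.06, interval -0.76 to -0.49, adjusted p = 0.000164), to 64.9% of control. Both control ASO arrays lay below the 3 control siRNA arrays, with a difference of -0.17 between the means that did not pass the test (adjusted p = 0.171).

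Thbs2, a trimeric thrombospondin that inhibits angiogenesis and affects collagen fibril assembly, had the widest range of group means of the 9 genes. With control ASO it was at 12.21 and 12.24 and with Pint ASO at 11.22, 11.30 and 11.14, a fall of 1.0 (SE 0.06, interval -1.14 to -0.87, adjusted p = 1.76e-05). The highest Pint ASO array and the lowest control array were 0.91 apart, and 49.9% of the control level was left. In the siRNA arm it was at 12.51, 12.59 and 12.56 with control siRNA and at 12.44, 12.35 and 12.31 with p53 siRNA. These groups did not overlap either, but the fall was small, at 0.19 (SE 0.05, interval -0.31 to -0.06, adjusted p = 0.0463), to 87.9% of control. That call was lost in 14 of 20 alternative fits, in which the adjusted p ranged from 0.0191 to 0.154, and in 8 of the 11 that left out 1 array. The 3 fits that kept it were those without p53 siRNA replicate 1 or Pint ASO replicates 2 or 3, and the log2 change lay between -0.22 and -0.16 in all 20.

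Sparc, a collagen-binding glycoprotein that MEFs make in large amounts, was at 13.76 and 13.78 with control ASO and at 13.47, 13.45 and 13.43 with Pint ASO. It fell by 0.32 (SE 0.04, interval -0.41 to -0.23, adjusted p = 0.000748), to 80.1% of control. With p53 siRNA it was at 13.89, 13.89 and 13.86, above the control siRNA values of 13.81, 13.81 and 13.84. This difference of 0.06 (SE 0.04, interval -0.02 to 0.14) did not pass the test (adjusted p = 0.329).

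**Figure D2:**
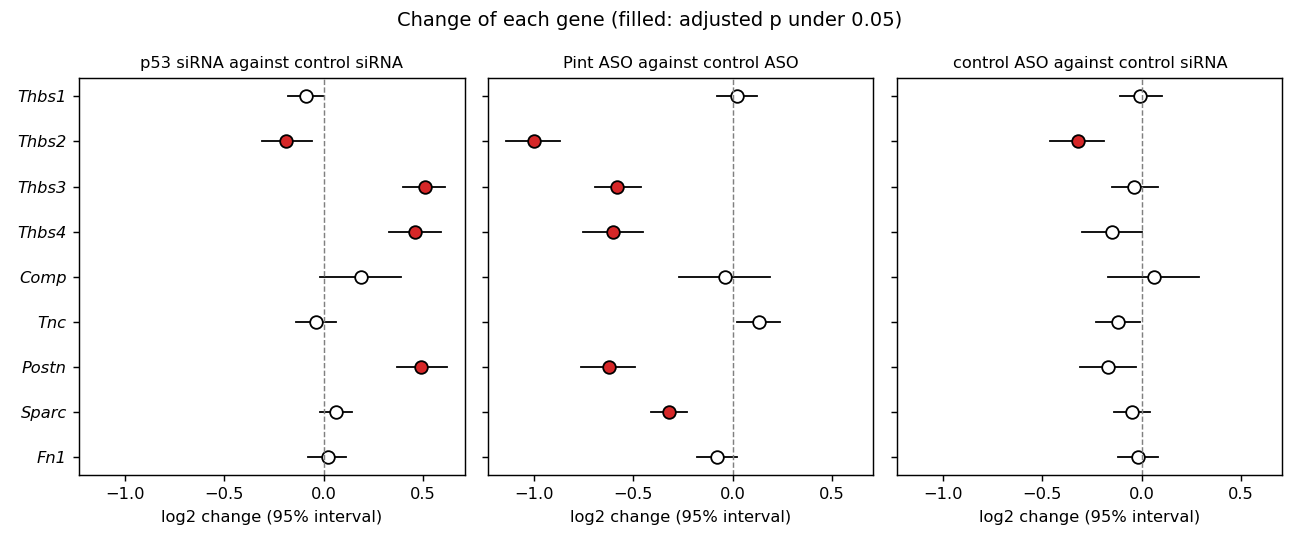
Log2 change (horizontal axis) of each gene in 3 comparisons, with its 95% interval (line); filled circles passed the test at an adjusted p under 0.05. Thbs3, Thbs4 and Postn lie right of 0 with p53 siRNA and left of 0 with Pint ASO, and Thbs2 is filled in all 3 panels, with changes of -0.19, -1.0 and -0.32.

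Among the 4 genes that passed in neither knockdown, Thbs1, the main angiogenesis inhibitor of the family and an activator of latent TGF-beta, ranged over only 0.14 log2 units across the 11 arrays. Its change was -0.09 (interval -0.18 to 0.00, adjusted p = 0.186) with p53 siRNA, with all p53 siRNA arrays (13.89 to 13.93) below the controls (13.96 to 14.02). With Pint ASO it was 0.02 (interval -0.08 to 0.12, adjusted p = 0.811), with overlapping groups. The Thbs1 level was thus the most even of the 9 genes over the 4 groups.

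Tnc, an anti-adhesive tenascin of wounds and embryonic mesenchyme, was the one gene whose interval with Pint ASO lay above 0, with a change of 0.13 (interval 0.02 to 0.24), but it did not pass the test (adjusted p = 0.0956). The 3 Pint ASO arrays (13.36 to 13.44) lay above both control ASO arrays (13.25 and 13.30) and within the range of the control siRNA arrays (13.36 to 13.44). With p53 siRNA its change was -0.04 (interval -0.14 to 0.06, adjusted p = 0.592). The Pint ASO value passed the test when quantile normalization was applied again or when the variance was fitted both robustly and with a trend on level.

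Fn1 changed by 0.02 (interval -0.08 to 0.11, adjusted p = 0.838) with p53 siRNA and by -0.08 (interval -0.18 to 0.02, adjusted p = 0.287) with Pint ASO. Its Pint ASO arrays (13.74 to 13.79) lay below both control ASO arrays, which were both at 13.84. Comp, the cartilage oligomeric matrix protein, was the dimmest and most variable of the 9 genes, with an SD of 0.18 within the Pint ASO group. Its changes were 0.19 (interval -0.02 to 0.39, adjusted p = 0.225) with p53 siRNA and -0.04 (interval -0.27 to 0.19, adjusted p = 0.828) with Pint ASO.

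Thbs1, Tnc, Sparc and Fn1 had values above 13 in every array, near the top of the scale, where the highest value of any probe set was 14.8. Over the 410 probe sets tested with a mean above 13, the median size of the change was 0.06 with p53 siRNA and 0.07 with Pint ASO, against 0.11 and 0.13 over all probe sets. The share called there was 9.51% with p53 siRNA and 19.5% with Pint ASO. Whether saturation of bright probes narrowed the changes of these 4 genes was not tested.

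Counted by the separation of arrays alone, 7 of 9 genes had groups that did not overlap with p53 siRNA, where 35.7% of all probe sets did so, and 7 of 9 with Pint ASO, where the share was 40.4%. Fn1 and Tnc were the exceptions with p53 siRNA, Thbs1 and Comp with Pint ASO. At an unadjusted p under 0.05, 4 genes passed with p53 siRNA, where 28.4% of probe sets did, and 6 with Pint ASO, where 30.5% did. With B over 3, 2 genes passed with p53 siRNA (Thbs3 and Postn), against 3.92% of probe sets, and 4 with Pint ASO (Thbs2, Thbs3, Thbs4 and Postn), against 3.12%.

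The next question was whether the changes in the 2 arms differed from each other. The Pint ASO change minus the p53 siRNA change passed the test in 5 of 9 genes, where 18.5% of probe sets passed in either direction, 9.15% on the higher and 9.40% on the lower side, on which all 5 lay. With B over 3 the difference held for 4 genes, against 3.61% of probe sets. The difference was -1.12 for Postn (SE 0.08, adjusted p = 2.6e-05), -1.08 for Thbs3 (SE 0.07, adjusted p = 1.54e-05), -1.06 for Thbs4 (SE 0.09, adjusted p = 5.71e-05), -0.82 for Thbs2 (SE 0.08, adjusted p = 0.000151) and -0.38 for Sparc (SE 0.06, adjusted p = 0.00127). For Thbs2 both changes were below 0, although the call with p53 siRNA was lost in 14 of 20 alternative fits. Thbs3, Thbs4 and Postn were called higher with p53 siRNA and lower with Pint ASO, a pattern found in 2.35% of probe sets tested. For Thbs1 (0.11, adjusted p = 0.28), Tnc (0.17, adjusted p = 0.105), Comp (-0.23, adjusted p = 0.323) and Fn1 (-0.10, adjusted p = 0.362) no difference was detected. The Tnc difference passed the test in 2 of 19 alternative fits, with a lowest adjusted p of 0.0262.

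The controls of the arms were compared as well, because the oligonucleotides differ in chemistry. Thbs2 alone was called, at 79.8% of its control siRNA level in control ASO (change -0.32, SE 0.06, interval -0.46 to -0.19, adjusted p = 0.022), where 4.02% of probe sets were called (2.29% higher and 1.73% lower). It did not reach B over 3, as 0.595% of probe sets did. That call was lost when any 1 of the 5 control arrays was left out, with adjusted p between 0.0522 and 0.124. The control groups did not overlap in 5 of the 9 genes, where 32.6% of probe sets did so, and 3 passed at an unadjusted p under 0.05, where 17.8% did. The order p53 siRNA, control siRNA, control ASO, Pint ASO, from high to low, held for Postn, Thbs3, Thbs4, Sparc and Fn1, and 6 of 9 genes had their lowest mean in Pint ASO. In Thbs3, Sparc and Fn1 the neighbouring control groups differed by -0.04, -0.05 and -0.02 (adjusted p = 0.62 to 0.886), in Thbs4 by -0.15 (adjusted p = 0.285), and none of these passed the test. The range of group means was 1.33 for Thbs2, 1.29 for Postn, 1.21 for Thbs4, 1.12 for Thbs3 and 0.43 for Sparc, against a median of 0.28 over all probe sets tested. It was 0.19 for Comp, 0.13 for Tnc, 0.12 for Fn1 and 0.10 for Thbs1.

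Likeness between genes was described by the root mean square difference of their values over the 11 arrays, each centred on its own mean. Postn and Thbs4 (0.087), Thbs3 and Thbs4 (0.090) and Postn and Thbs3 (0.092) followed each other closely, although the genes range over more than 1 log2 unit. Thbs1 and Tnc were also alike (0.058), both being nearly flat. The least alike pair was Thbs1 and Thbs2 (0.560), the genes with the narrowest and the widest range over the arrays (0.14 and 1.44). The measure depends on these ranges. Among 17515 other probe sets with 1 symbol, those closest to Thbs2 were Pi15 (0.095), Vnn1 (0.100), Kcnj2 (0.103), Gas6 (0.105) and Ndnf (0.109). With Pint ASO the log2 change was -1.13 for Pi15, -1.05 for Vnn1 and Kcnj2, -0.98 for Gas6 and -0.80 for Ndnf. None of the 5 was called with p53 siRNA. Gas6 (-0.27, adjusted p = 0.0456) and Ndnf (-0.31, adjusted p = 0.041) were called lower in control ASO than in control siRNA, as 1.73% of probe sets were. Pi15, Vnn1 and Kcnj2 were not called there. The 5 were chosen for their likeness on these same arrays. The 11 arrays share their controls and group structure, so these distances are descriptions.

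Other matricellular genes and close relatives of these proteins moved in both directions in each knockdown. Of 23 listed, 22 were tested, and 9 rose and 4 fell with p53 siRNA while 2 rose and 9 fell with Pint ASO. Over all probe sets, 7.97% were called higher and 8.96% lower with p53 siRNA, and 8.49% higher and 10.7% lower with Pint ASO. The median log2 change of the 22 genes was 0.14 and -0.14 in the 2 comparisons. Extracellular matrix is a theme that the study itself drew from these arrays, so the counts are not independent of it. The largest rises with p53 siRNA were in Ccn5 (0.82, SE 0.07, adjusted p = 6.18e-05), a CCN protein without the C-terminal domain, in Smoc1 (0.65, SE 0.05, adjusted p = 3.19e-05), a relative of Sparc, and in Emilin1 (0.65, SE 0.06, adjusted p = 4.69e-05), an elastic fibre glycoprotein. The largest falls were in Smoc2 (-0.43, adjusted p = 0.00049), Ecm1 (-0.35, adjusted p = 0.000902) and Ccn2 (-0.25, adjusted p = 0.00299), the connective tissue growth factor gene.

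With Pint ASO, Ccn5 fell by 1.38 (SE 0.08, adjusted p = 1.39e-05), the tenascin gene Tnn by 0.93 (SE 0.05, adjusted p = 1.11e-05) and Ccn3 by 0.89 (SE 0.06, adjusted p = 3.44e-05). Ccn2 rose by 0.60 (SE 0.05, adjusted p = 5.55e-05) and Ccn1 by 0.29 (SE 0.04, adjusted p = 0.00174), both secreted products of serum- and stretch-responsive genes. In all, 7 of the 22 genes were called higher with p53 siRNA and lower with Pint ASO, namely Ccn3, Ccn5, Tgfbi, Tnn, Fbln1, Fbln5 and Emilin1. This pattern was found in 2.35% of probe sets tested. Ccn1 and Ccn2 were called the other way round. The tenascins differed, as Tnn moved in both arms and Tnc, Tnr and Tnxb passed in neither. Smoc1 did not pass with Pint ASO (-0.12, adjusted p = 0.207). Between the controls, 4 of the 22 genes were called lower in control ASO, with Tnn at -0.48, Ccn5 at -0.35, Tgfbi at -0.33 and Fbln5 at -0.22. Over all probe sets, 1.73% were called lower there.

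**Figure D3:**
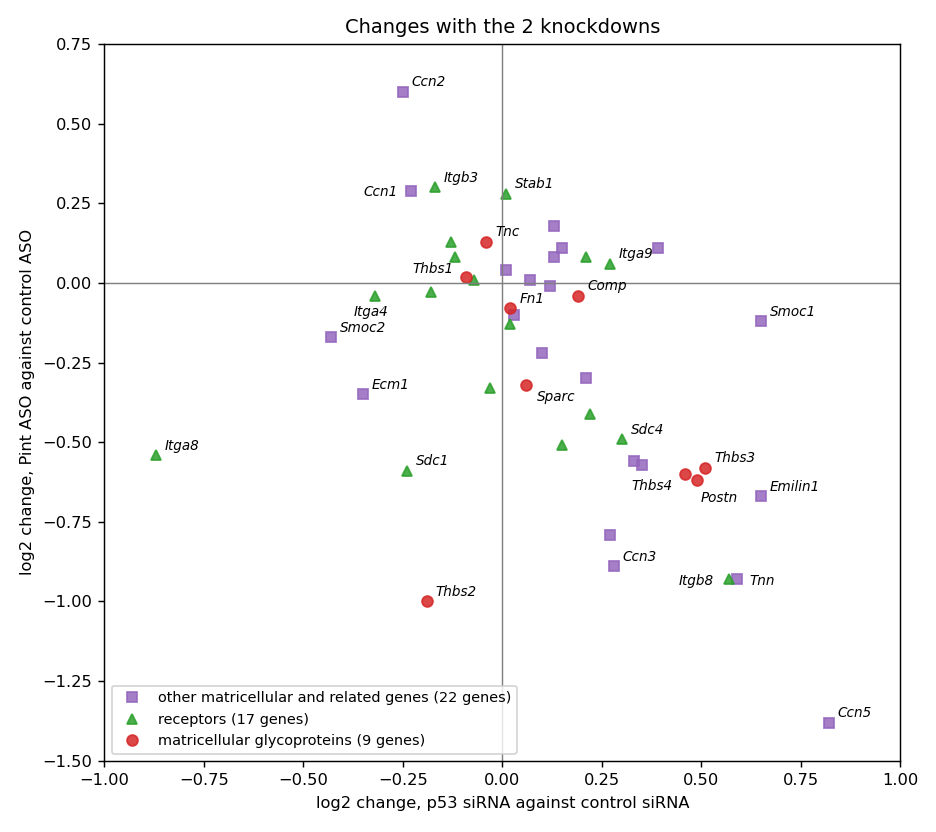
Log2 change with Pint ASO (vertical axis) against log2 change with p53 siRNA (horizontal axis) for the 9 genes (circles), 22 other matricellular and related genes (squares) and 17 receptors (triangles); labels mark the 9 genes and the named genes of both lists. Thbs3, Thbs4 and Postn sit together at the lower right, near Emilin1, Tnn and Itgb8, whereas Thbs2 lies at the lower left at -0.19 and -1.0, and Thbs1, Tnc, Comp and Fn1 lie near the origin.

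Receptors for these glycoproteins include integrins, syndecans, Cd47 and Lrp1, and 17 of 19 listed were tested. With p53 siRNA 5 rose and 5 fell, and with Pint ASO 2 rose and 7 fell, around medians of -0.03 and -0.04. The shares over all probe sets, higher and lower, were 7.97% and 8.96% with p53 siRNA and 8.49% and 10.7% with Pint ASO. With p53 siRNA the integrin subunit gene Itgb8 (0.57, SE 0.14, adjusted p = 0.0193), the syndecan gene Sdc4 (0.30, adjusted p = 0.0023) and Itga9 (0.27, adjusted p = 0.0283), which encodes a subunit of a tenascin receptor, rose most. The largest falls were in Itga8 (-0.87, SE 0.06, adjusted p = 1.73e-05), a subunit of a fibronectin receptor, in Itga4 (-0.32, adjusted p = 0.0108) and in Sdc1 (-0.24, adjusted p = 0.0072). With Pint ASO, Itgb8 fell by 0.93 (SE 0.15, adjusted p = 0.00271), Sdc1 by 0.59 (SE 0.05, adjusted p = 0.000119) and Itga8 by 0.54 (SE 0.07, adjusted p = 0.000758). Itgb3, a subunit of receptors for many matricellular proteins, rose by 0.30 (adjusted p = 0.00359) and Stab1, a scavenger receptor for Sparc, by 0.28 (adjusted p = 0.0126). The thrombospondin receptor gene Cd47 fell by 0.51 (SE 0.07, adjusted p = 0.00113) with Pint ASO and changed by 0.15 (adjusted p = 0.152) with p53 siRNA. Itga8 was the one receptor called between the controls, where 4.02% of probe sets were called. It was lower in control ASO by a change of -0.52 (adjusted p = 0.00485).

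Some fibroblast markers moved in the same directions as Thbs3, Thbs4 and Postn. Over all probe sets, 7.97% were called higher and 8.96% lower with p53 siRNA, and 8.49% higher and 10.7% lower with Pint ASO. Col1a1, Col1a2, Pdgfra and Pdgfrb were called higher with p53 siRNA and lower with Pint ASO, while Vim, Fap and Twist1 were called in neither knockdown. Of 10 markers, 4 rose and none fell with p53 siRNA, and 7 fell and none rose with Pint ASO, and their summed linear level was 62490 to 63785 per array in control siRNA, 69940 to 71154 in p53 siRNA, 60066 to 60114 in control ASO and 49162 to 50250 in Pint ASO. Of the 7 chondrocyte and tendon markers, 2 rose with p53 siRNA and 1 fell with Pint ASO, with summed levels of 2671 to 2819, 3284 to 3414, 2598 to 2711 and 2412 to 2627 in the same order. Of the 5 smooth muscle markers, 1 rose and 1 fell with p53 siRNA and 2 fell with Pint ASO, with sums of 27347 to 28884, 28765 to 30022, 25829 to 26421 and 23548 to 24195. Of 5 macrophage markers tested, Cd68 was called, and it was lower in both knockdowns, with list sums of 1804 to 1881, 1119 to 1161, 1768 to 1806 and 1387 to 1453. Of 4 endothelial markers tested, none was called with p53 siRNA, and 1 rose (Kdr) and 1 fell (Tek) with Pint ASO. The sums of this list were 472 to 503, 504 to 530, 497 to 520 and 630 to 643 in the same order. Neither of the 2 osteoblast markers tested was called. Linear sums weigh the brightest genes of a list most. Kdr averaged 7.28 in control ASO and 8.05 in Pint ASO, and Cd68 10.46 in control siRNA and 9.42 in p53 siRNA. The part of these shifts in the changes of Thbs3, Thbs4, Postn, Thbs2 and Sparc was not tested.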

How the data were processed

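The authors hybridized RNA of 11 MEF samples, 300 ng of total RNA each, to Affymetrix mouse arrays that cover whole transcripts. The deposited values are log2 intensities that the authors made with RMA (background correction, normalization between arrays, 1 value per probe set; version not given in the sources used here). Array medians lay between 7.31 and 7.38, and correlations between arrays were 0.993 to 0.995 within and 0.983 to 0.993 between groups. How few arrays there are sets the precision.

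Of 34760 probe sets, the 26038 with values over log2 6 (64) in 2 or more arrays of any group were tested. All groups were fitted together in limma 3.58.1 (R 4.3.3), without trend, with Benjamini-Hochberg adjustment over all probe sets tested, and the code was tested on simulated data. Genes were named from the platform annotation where a probe set carried 1 symbol (21640 probe sets; 1321 with several were not named). Members and lists were chosen with earlier results of these data known. Named genes are all members, up to 3 called genes per direction of the receptor list and of the list of other matricellular genes in each knockdown, and the 5 probe sets most like the gene with the largest Pint ASO change. Marker genes given by name, and Cd47, Tgfbi, Fbln1, Fbln5, Tnr and Tnxb, lie outside this rule and were chosen after their values were seen. Promoter windows came from RefSeq. Alternatives were the filter, scaling, robust variance with a trend, separate arms, replicate blocks, leaving out each array, B over 3 and leaving out unnamed probe sets.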

Additional observations from a re-analysis of the deposited data

Results flagged for a closer look

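The Pint ASO change and the p53 siRNA change differed by limma's test of the difference itself in 5 of the 9 genes. The Pint ASO change minus the p53 siRNA change was -1.12 for Postn, -1.08 for Thbs3, -1.06 for Thbs4, -0.82 for Thbs2 and -0.38 for Sparc on the log2 scale. These differences passed the test in each of the 19 alternative fits run for each of the 5 genes, with ranges of -1.16 to -1.07, -1.13 to -1.04, -1.11 to -1.01, -0.86 to -0.78 and -0.40 to -0.37. The 2 changes compared were each measured against a control of their own.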

How the results depend on the processing

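The calls of Thbs3, Thbs4 and Postn in both knockdowns and of Thbs2 and Sparc with Pint ASO held in each of 20 alternative fits, with adjusted p of at most 0.0412 (Sparc). With B over 3 in place of the adjusted p, the count of genes called was 2 in place of 4 with p53 siRNA and 0 in place of 1 between the controls. It was 4 in place of 5 with Pint ASO and for the difference. The calls lost were Thbs2 and Thbs4 with p53 siRNA, Sparc with Pint ASO and in the difference, and Thbs2 between the controls. Leaving out 1 array at a time gave counts of 3 to 4 with p53 siRNA, 5 with Pint ASO, 0 to 1 between the controls and 5 for the difference. Thbs2 between the controls lost its call when a replicate block was added from the titles (adjusted p = 0.0597) or from the descriptions (adjusted p = 0.0684), leaving a count of 0 each time, and Thbs2 with p53 siRNA lost its call with both (adjusted p = 0.0773 and 0.0795). A replicate block changed no other call of the 9 genes. Same-numbered siRNA arrays did not deviate together (correlations of deviations -0.284, -0.181 and -0.0371), and the control ASO arrays carry other numbers in their titles than in their descriptions (-0.0463 and -0.42 from titles, 0.42 and 0.375 from descriptions), so the numbers were not used as pairs. The sign of a change turned only where no call was made: Thbs1 between the controls was at 0.01 with each array centred on its median, and leaving out 1 array gave ranges of 0.00 to 0.04 for Fn1 with p53 siRNA, 0.00 to 0.05 for Thbs1 and -0.14 to 0.04 for Comp with Pint ASO, and -0.03 to 0.02 for Thbs1, -0.08 to 0.01 for Thbs3 and -0.01 to 0.10 for Comp between the controls. Thbs1 with p53 siRNA was called (adjusted p = 0.0431) when the variance was fitted both robustly and with a trend. In that fit, and with quantile normalization applied again, Tnc was called with Pint ASO and in the difference. The count was 6 in both comparisons each time. Over all probe sets, calls with Pint ASO went from 4985 to 1890 when each arm was fitted alone, and calls between the controls from 1046 to 371 and 465 with the blocks from titles and descriptions and to between 302 and 982 when 1 array was left out. The cause was not tested. Leaving out 6573 unnamed probe sets, a choice made after seeing the data, changed no count of called genes. A mean over several probe sets could not be formed, as each gene has 1. Comp, the dimmest of the 9 genes, had the largest standard errors, 0.09 with p53 siRNA and 0.10 with Pint ASO, and control ASO has only 2 arrays.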
